A study of Mus musculus with 2 samples.

Results

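The genes described here are 31 genes of cholesterol and fatty acid synthesis, taken by symbol from a list of names, of 32285 genes in the deposited matrices. All 31 were found and each had at least 1 UMI, the tag that marks 1 captured RNA molecule, in both libraries. They fall into 4 roles. The mevalonate steps hold 7 genes, the steps between squalene and cholesterol hold 11, the control of the SREBP transcription factors holds 5, and fatty acid synthesis and desaturation holds 8. They were followed in single-cell RNA libraries of haematopoietic stem cells taken by FACS out of bone marrow of C57Bl6 mice of WT genotype, given in the series title as 8-week old. Both sorts started within LSK, the fraction without lineage markers that carries Sca-1 and Kit. Per the labels, the ST-HSC gate was CD34-, CD150+ and CD48+, and the LT-HSC gate was CD34-, CD150+, CD48- and Flk2-. Each sort gave 1 library, made with the 10x Genomics 3' v2 kit, so there is no replicate error. The number of mice behind each library is not given in the sources used here.

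Cells make cholesterol from acetyl-CoA through mevalonate, isoprenoid diphosphates, squalene and lanosterol, and they make fatty acids from the same acetyl-CoA through malonyl-CoA. Srebf2 and Srebf1 encode transcription factors that are held in the endoplasmic reticulum membrane by Scap and the Insig proteins while sterols are plentiful, and that are released by cutting in the Golgi when sterols are scarce. The Srebf2 product acts mainly on sterol synthesis genes and the Srebf1 product mainly on fatty acid genes, and Insig1 is itself a target of this system. RNA levels of the enzymes are therefore often read beside the level of Insig1.

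Cells with 1000 or more genes and under 10% of UMIs from mitochondrial genes were kept, which left 6648 of 7586 barcodes in the ST-HSC library and 2722 of 2938 in the LT-HSC library. Their UMIs summed to 111783180 and 64673871, with medians of 13402 UMIs in ST-HSC cells and 17595 in LT-HSC cells. The median mitochondrial share was 3.47% in ST-HSC cells and 1.60% in LT-HSC cells. The libraries shared 8 deposited barcodes, of which 6 were kept in both. The labelled gates were checked against their own genes. Slamf1, which encodes CD150, stood at 1.26 CPM (UMIs of the gene scaled to a total of 1e6 UMIs) in the ST-HSC library and 26.5 CPM in the LT-HSC library, although both gates ask for the protein. Cd34, which both gates exclude, stood at 242 CPM in the ST-HSC library and 29.2 CPM in the LT-HSC library. Flt3, which encodes Flk2, stood at 291 CPM in the ST-HSC library and 5.50 CPM in the LT-HSC library. The Slamf1 and Cd34 levels of the library labelled ST-HSC go against its gate, so every direction below is between libraries as labelled.

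Cells were placed in classes by genes outside the 31. Per 10000 UMIs of the cell, Hlf-high cells had 3 or more UMIs of Hlf (a stem cell transcription factor), Dntt-positive cells 1 or more of Dntt (lymphoid terminal transferase) with at least 2 UMIs, Car1-high cells 30 or more of Car1 (carbonic anhydrase of early erythroid cells) and Pf4-high cells 10 or more of Pf4 (a platelet granule chemokine). A cell was used in a class when it met exactly 1 of these rules. The ST-HSC library held 3103 Hlf-high, 805 Dntt-positive, 180 Car1-high and 4 Pf4-high cells, with 704 cells both Hlf-high and Dntt-positive. The LT-HSC library held 774 Hlf-high, 1 Dntt-positive, 644 Car1-high and 243 Pf4-high cells. Classes are ranges cut on a level: 673 ST-HSC cells and 223 LT-HSC cells lay within 20% of the Hlf limit. Classes with under 50 cells were not compared. The summed level of 8 stem cell markers was 3487 CPM in Hlf-high ST-HSC cells and 3115 CPM in Hlf-high LT-HSC cells, and 8 erythroid markers summed to 5441 CPM in Car1-high ST-HSC cells and 7932 CPM in Car1-high LT-HSC cells. These lists include Hlf and Car1 themselves, so part of each sum was fixed by the class rule. In ST-HSC and LT-HSC cells, 7 and 8 stem cell markers reached 5 CPM in Hlf-high cells, and 4 and 4 in Car1-high cells. Of the erythroid markers, 8 and 6 reached 5 CPM in Car1-high cells, and 1 and 4 in Hlf-high cells.

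Promoters are shown for Insig1, Srebf2, Msmo1 and Cyp51, which had the largest differences in the comparison with the most members past 1.5-fold, Car1-high against Hlf-high cells of the LT-HSC library. Each is the RefSeq window on GRCm38.p6 from 250 bases before to 50 bases after the start site, on the gene's strand. Capitals mark matches to CCAAT, the box bound by NF-Y, to GGGCGG, the box bound by Sp factors, or to CACGTG, the E-box, on either strand. NF-Y and Sp factors are known partners of SREBP at sterol genes. Insig1 lies at chr5:28071162-28071461 (plus strand), Srebf2 at chr15:82147019-82147318 (plus), Msmo1 at chr8:64733529-64733828 (minus) and Cyp51 at chr5:4104648-4104947 (minus).
Insig1: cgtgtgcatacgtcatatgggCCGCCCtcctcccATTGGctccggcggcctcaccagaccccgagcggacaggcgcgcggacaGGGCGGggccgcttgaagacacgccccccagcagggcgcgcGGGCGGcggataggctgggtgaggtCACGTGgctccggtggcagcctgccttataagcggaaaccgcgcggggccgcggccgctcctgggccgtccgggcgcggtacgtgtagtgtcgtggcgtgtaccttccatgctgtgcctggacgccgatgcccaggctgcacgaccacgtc
Srebf2: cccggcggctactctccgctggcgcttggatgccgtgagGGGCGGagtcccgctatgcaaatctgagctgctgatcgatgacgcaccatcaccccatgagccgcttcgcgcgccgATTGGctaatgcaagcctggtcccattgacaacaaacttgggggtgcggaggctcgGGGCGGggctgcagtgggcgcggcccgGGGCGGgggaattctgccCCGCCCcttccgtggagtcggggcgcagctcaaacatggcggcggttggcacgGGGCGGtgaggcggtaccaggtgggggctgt
Msmo1: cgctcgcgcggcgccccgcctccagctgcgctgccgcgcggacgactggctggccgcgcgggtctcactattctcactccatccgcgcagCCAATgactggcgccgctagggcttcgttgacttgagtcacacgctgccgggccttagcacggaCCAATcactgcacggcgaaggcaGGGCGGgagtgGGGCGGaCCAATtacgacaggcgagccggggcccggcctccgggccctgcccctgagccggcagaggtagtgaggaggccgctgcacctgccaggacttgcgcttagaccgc
Cyp51: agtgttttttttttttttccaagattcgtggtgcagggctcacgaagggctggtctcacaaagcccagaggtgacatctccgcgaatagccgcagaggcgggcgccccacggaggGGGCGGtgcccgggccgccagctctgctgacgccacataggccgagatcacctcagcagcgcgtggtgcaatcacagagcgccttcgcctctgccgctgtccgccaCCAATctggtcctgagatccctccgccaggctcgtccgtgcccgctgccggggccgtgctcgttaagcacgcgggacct

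Insig1 held 1 CCAAT, 3 GGGCGG and 1 CACGTG match in this window. Srebf2 held 1 CCAAT and 5 GGGCGG matches, and Msmo1 held 3 CCAAT and 2 GGGCGG matches. Cyp51 held 1 of each of these boxes. RefSeq windows were found for 25 of the 31 genes, in 33 windows. CCAAT was present in 20 of the 25 genes and in 63.6% of their windows, against 37.4% of all 32851 windows in the table. GGGCGG was present in 21 of the 25 genes and in 75.8% of their windows, against 35.7% of all windows. All 9 of the squalene-to-cholesterol genes with a window held both boxes, while CCAAT was in 2 of 5 fatty acid genes. CACGTG was present in 5 genes and 18.2% of their windows, against 7.15% of all windows. The form TCACNCCAC of the sterol response element, also searched on both strands, was in 1 gene, Hmgcs1, and in 1.24% of all windows. These are letter matches, and no binding was measured. In GENCODE M21 for the same build, Insig1 spans 28071363 to 28078662 of chromosome 5, Srebf2 82147181 to 82205379 of chromosome 15, Msmo1 64718139 to 64733792 of chromosome 8 and Cyp51 4081145 to 4104746 of chromosome 5, where Akap9 overlaps Cyp51 on the other strand. Srebf2 also hosts Mir33 on its own strand. For each of these genes the GENCODE start lies before the RefSeq start site. Most of the Msmo1 window lies inside the GENCODE gene, and the matches shown for Msmo1 lie after the GENCODE start.

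Hlf-high cells were compared first, as the class defined by the RNA of a stem cell factor in both libraries. In these cells Idi1, Fdps, 6 genes between squalene and cholesterol, and Insig1 were lower in the ST-HSC library, while Fasn, Elovl6, Acaca and Scap were higher. Of 28 members with a mean of at least 5 CPM over both groups, 4 were higher by 1.5-fold or more and 9 were lower by 1.5-fold or more. Among all 10742 genes measured this way, 15.7% were that much higher and 12.6% that much lower. The higher count is thus near the share of all genes, so the higher genes are given as levels and not as a change of the group. The members' median log2 ratio, ST-HSC over LT-HSC, was -0.33, beside 0.0013 over all genes. Lss, Tm7sf2 and Scd1 were below the limit of 5 CPM. Intervals in brackets are exact 95% intervals of counting error only, and no p-value can be given with 1 library a group.

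**Figure D1:**
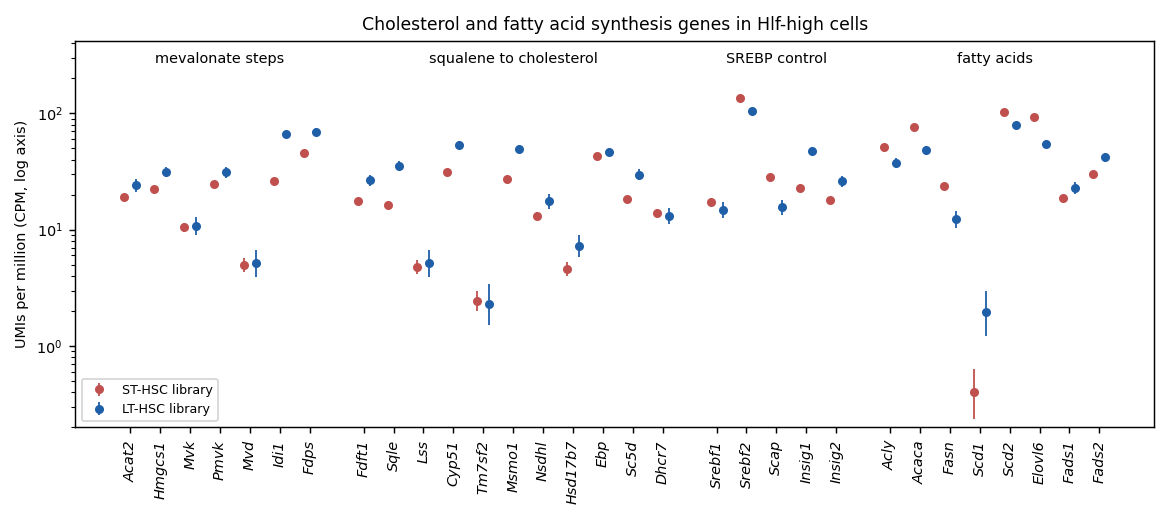
Level of each of the 31 genes in Hlf-high cells of the ST-HSC library (red, 3103 cells) and the LT-HSC library (blue, 774 cells), in CPM on a log axis. Points are levels from summed counts and lines are exact Poisson 95% intervals. Idi1, Sqle and Insig1 sit lower in red by over 2-fold, while Acaca, Fasn and Elovl6 sit higher in red.

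The mevalonate steps build the isoprenoid units. Idi1, which interconverts the isopentenyl diphosphates, stood at 26.3 CPM in ST-HSC cells and 65.7 CPM in LT-HSC cells, 2.50-fold lower in ST-HSC cells (2.28 to 2.74). Fdps, farnesyl diphosphate synthase, stood at 45.3 CPM in ST-HSC cells and 69.6 CPM in LT-HSC cells, 1.54-fold lower in ST-HSC cells (1.41 to 1.67). Idi1 and Fdps were the 2 genes of 7 past 1.5-fold in this role, whose median log2 ratio was -0.34. With TMM or median-of-ratios scaling in place of the library totals, Fdps fell inside 1.5-fold. Hmgcs1, which makes HMG-CoA, stood at 22.5 CPM in ST-HSC cells and 31.4 CPM in LT-HSC cells, a ratio of 0.717. Acat2 (acetoacetyl-CoA thiolase) and Pmvk (phosphomevalonate kinase) had ratios of 0.792 and 0.797. The kinase Mvk and the decarboxylase Mvd had ratios of 0.971 and 0.970, with intervals that include 1. Fdps and Idi1 need care: 79.8% and 44.7% of the 31-base words in the last 500 bases of their transcripts also occur in other annotated genes, so reads may have been lost to or gained from these copies. For Acat2 the share is 25.3%, with Acat3.

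Of the steps after farnesyl diphosphate, 6 of 9 measured were past the limit, all lower in ST-HSC cells, with a median log2 ratio of -0.66. Among these, Hsd17b7 reached the mean of 5 CPM only through the LT-HSC cells, where it is higher, so its call does not count as support. Sqle, squalene epoxidase and a rate-controlling step, stood at 16.3 CPM in ST-HSC cells and 35.0 CPM in LT-HSC cells, 2.15-fold lower in ST-HSC cells (1.90 to 2.43). Msmo1, which oxidises methyl groups of the sterol ring, stood at 27.1 CPM in ST-HSC cells and 49.3 CPM in LT-HSC cells, 1.82-fold lower (1.64 to 2.01). Cyp51, lanosterol demethylase, stood at 31.1 CPM in ST-HSC cells and 53.1 CPM in LT-HSC cells, 1.71-fold lower (1.55 to 1.88). Sc5d, a sterol desaturase, stood at 18.3 CPM in ST-HSC cells and 29.6 CPM in LT-HSC cells, 1.62-fold lower. Hsd17b7, a sterol ketone reductase, stood at 4.62 CPM in ST-HSC cells and 7.29 CPM in LT-HSC cells, 1.58-fold lower with a wide interval (1.21 to 2.05). Fdft1, squalene synthase, stood at 17.6 CPM in ST-HSC cells and 26.5 CPM in LT-HSC cells, 1.51-fold lower (1.32 to 1.73). With TMM or median-of-ratios scaling Fdft1 also fell inside 1.5-fold. Ebp, the sterol isomerase, stood at 43.4 CPM in ST-HSC cells and 46.5 CPM in LT-HSC cells, and Dhcr7, the last reductase, at 14.0 CPM in ST-HSC cells and 13.1 CPM in LT-HSC cells, both with intervals of the ratio that include 1. Nsdhl, the remaining measured gene of this role, stood at 13.2 CPM in ST-HSC cells and 17.5 CPM in LT-HSC cells. Its ratio was 0.752 (0.639 to 0.888), inside the limit.

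Of the control genes, the factors themselves were not lower. Srebf2 stood at 136 CPM in ST-HSC cells and 104 CPM in LT-HSC cells, a ratio of 1.31 (1.23 to 1.39). Srebf1 stood at 17.4 CPM in ST-HSC cells and 14.8 CPM in LT-HSC cells, a ratio of 1.17 (0.990 to 1.39). Scap, the escort protein of both factors, stood at 28.3 CPM in ST-HSC cells and 15.5 CPM in LT-HSC cells, 1.82-fold higher in ST-HSC cells. Insig1, the retention protein, went the other way, at 22.9 CPM in ST-HSC cells and 47.5 CPM in LT-HSC cells, 2.08-fold lower in ST-HSC cells (1.87 to 2.31). Insig2 had 17.9 CPM in ST-HSC cells and 25.9 CPM in LT-HSC cells, a ratio of 0.690.

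Of the 7 measured fatty acid genes, 3 were past 1.5-fold, all higher in ST-HSC cells, and the median log2 ratio was 0.45. Beside them 15.7% of all genes were that much higher, and the higher count over all members was near that share. Fasn, fatty acid synthase, stood at 23.7 CPM in ST-HSC cells and 12.3 CPM in LT-HSC cells, 1.93-fold higher in ST-HSC cells (1.62 to 2.32). Elovl6, which lengthens palmitate, stood at 92.7 CPM in ST-HSC cells and 54.7 CPM in LT-HSC cells, 1.69-fold higher. Acaca, acetyl-CoA carboxylase, stood at 75.9 CPM in ST-HSC cells and 48.0 CPM in LT-HSC cells, 1.58-fold higher. Acly, which makes cytosolic acetyl-CoA from citrate, and Scd2, a stearoyl-CoA desaturase, had ratios of 1.37 and 1.29, inside the limit. The polyunsaturated fatty acid desaturases Fads1 and Fads2 were the only measured fatty acid genes with ratios below 1, at 0.812 and 0.722. Scd1, the other stearoyl-CoA desaturase on the list, had few UMIs, 18 in ST-HSC cells (0.401 CPM) and 22 in LT-HSC cells (1.95 CPM). Words shared with other genes also make up 22.7% in Acaca and 14.0% in Elovl6.

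Other features moved with the library in the same cells. Cycling, read from S and G2/M gene lists, was called in 23.5% of ST-HSC and 3.43% of LT-HSC Hlf-high cells, and the median mitochondrial share was 3.56% in ST-HSC and 1.88% in LT-HSC. Lymphoid progenitor markers summed to 597 CPM in ST-HSC cells, with 6 of 8 at 5 CPM or more, and to 50.7 CPM in LT-HSC cells, with 3 of 8 at that level and Il7r at 0. Megakaryocyte markers summed to 133 CPM in ST-HSC and 339 CPM in LT-HSC cells. When cells called cycling were left out, 4 of 29 measured members were higher and 6 were lower by 1.5-fold. Beside them 14.4% of all genes were higher and 11.7% lower, so the higher count is near the share of all genes. The part of the mitochondrial share and of the lymphoid markers in the result was not tested.

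Over all cells, which fall into different classes in the 2 libraries, fewer members were lower. In the ST-HSC library 6 of 26 measured members were higher by 1.5-fold or more, beside 24.9% of all 10412 genes measured, and 2 were lower, beside 10.3% of all genes, both close to the background. The higher members were in the fatty acid and control roles. Elovl6 stood at 80.5 CPM in ST-HSC cells and 36.3 CPM in LT-HSC cells, 2.22-fold higher (2.12 to 2.32), Fasn at 25.5 CPM in ST-HSC cells and 14.3 CPM in LT-HSC cells, and Acaca at 75.7 CPM in ST-HSC cells and 42.8 CPM in LT-HSC cells. Scd2 had 89.0 CPM in ST-HSC cells and 55.4 CPM in LT-HSC cells, Srebf2 had 109 CPM in ST-HSC cells and 64.4 CPM in LT-HSC cells, and Scap had 27.9 CPM in ST-HSC cells and 15.9 CPM in LT-HSC cells. Idi1, at 25.3 CPM in ST-HSC cells and 47.4 CPM in LT-HSC cells, and Sqle, at 16.4 CPM in ST-HSC cells and 26.3 CPM in LT-HSC cells, were the lower members. Insig1 had 19.1 CPM in ST-HSC cells and 25.3 CPM in LT-HSC cells, a ratio of 0.754, inside the limit. Srebf1 had 18 CPM in ST-HSC cells and 16.7 CPM in LT-HSC cells, and Scd1 had 72 UMIs in ST-HSC cells and 51 UMIs in LT-HSC cells. With TMM scaling the counts were 5 higher and 3 lower, beside 19.2% and 16.2% of all genes. The median log2 ratio of all genes went to -0.0083 with TMM, against 0.12 without it. Leaving out Car1-high and Pf4-high cells gave 4 of 27 higher and 5 lower, beside 16.3% and 10.8% of all genes.

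**Figure D2:**
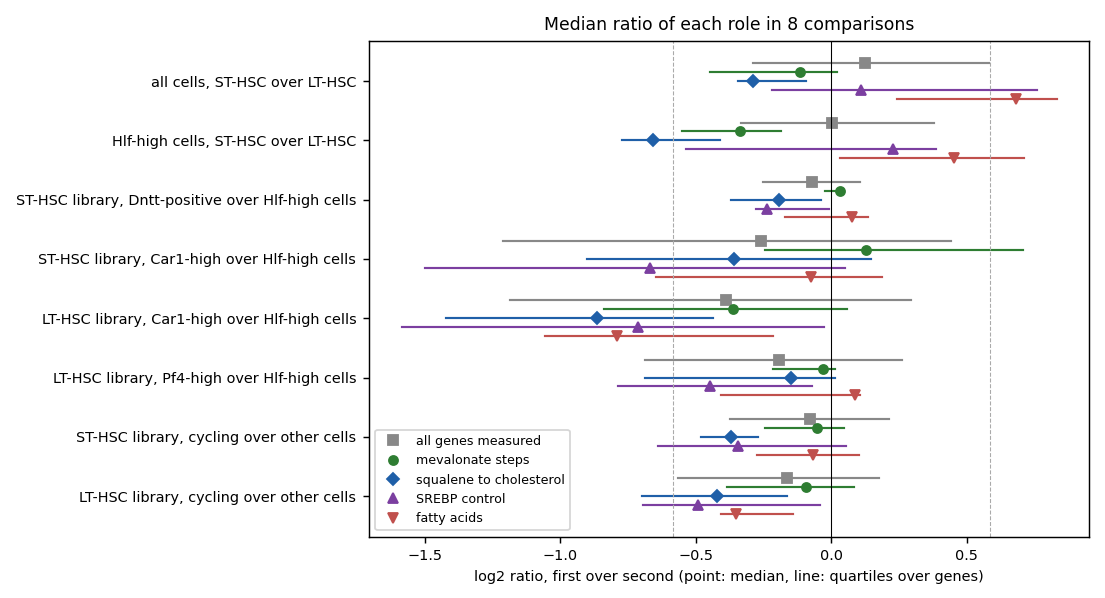
Median log2 ratio of the measured genes of each role in 8 comparisons, with lines between the quartiles and dashed lines at 1.5-fold. In Hlf-high cells the squalene-to-cholesterol genes had a median of -0.66 and the fatty acid genes 0.45, with all genes at 0.0013.

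Genes around the pathway were taken from 5 further lists and are given by the same measure over all cells. Of 12 measured genes of sterol uptake, esterification and transport, 5 were higher in the ST-HSC library and 0 lower, beside 24.9% and 10.3% of all genes, with a median log2 ratio of 0.56, beside 0.12 over all genes. Npc1, which exports cholesterol from lysosomes, stood at 32.3 CPM in ST-HSC cells and 9.85 CPM in LT-HSC cells, 3.28-fold higher (3.02 to 3.58), and Mylip, a ligase that removes lipoprotein receptors, at 44.3 CPM in ST-HSC cells and 20.1 CPM in LT-HSC cells. Soat1, which esterifies cholesterol, stood at 26.3 CPM in ST-HSC cells and 14.3 CPM in LT-HSC cells, and the lipid transfer protein gene Osbpl8 at 346 CPM in ST-HSC cells and 198 CPM in LT-HSC cells. The fifth was the sterol exporter Abca1, at 17.7 CPM in ST-HSC cells and 11.0 CPM in LT-HSC cells, named after its value was seen. In Hlf-high cells this list had 3 higher (Npc1, Osbpl8 and the lipoprotein receptor gene Scarb1) and 1 lower, beside 15.7% and 12.6% of all genes, with a median of -0.01. The lower one was Stard4, a sterol transfer protein, at 30.2 CPM in ST-HSC cells and 46.8 CPM in LT-HSC cells. There Npc1 stood at 37.1 CPM in ST-HSC cells and 18.5 CPM in LT-HSC cells, while Soat1 stood at 31.7 CPM in ST-HSC cells and 33.1 CPM in LT-HSC cells.

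Of 9 genes that carry, cut or degrade SREBP and its partners, 4 were higher in the ST-HSC library over all cells and 0 lower, and 3 were higher in Hlf-high cells. The counts in this paragraph stand beside 24.9% of all genes higher and 10.3% lower over all cells, and 15.7% higher in Hlf-high cells, and over all cells the higher counts of the isoprenoid and oxidation lists are near the share of all genes. Sec24d, a coat protein of vesicles that leave the endoplasmic reticulum, stood at 30.6 CPM in Hlf-high ST-HSC cells and 12.5 CPM in Hlf-high LT-HSC cells, 2.44-fold higher (2.05 to 2.93). The SREBP proteases Mbtps2 and Mbtps1 had ratios of 1.62 and 1.53 in the same cells, and Erlin1, which takes part in the breakdown of proteins of the endoplasmic reticulum, had 27.6 CPM in ST-HSC cells and 17.5 CPM in LT-HSC cells over all cells. Of 9 isoprenoid genes, 3 were higher over all cells, with ratios of 1.998 for Dhdds of dolichol synthesis, 1.64 for Pdss2 of the ubiquinone side chain and 1.59 for the protein farnesyltransferase subunit Fntb, and Coq2 of ubiquinone synthesis was lower at 0.663. Of 13 measured further fatty acid genes, Elovl5, an elongase of polyunsaturated fatty acids, was higher at 67.1 CPM in ST-HSC cells and 19.8 CPM in LT-HSC cells, and Acss2, acetyl-CoA synthetase, was lower at 21.9 CPM in ST-HSC cells and 38.2 CPM in LT-HSC cells. Dgat1 and Lpin1, of triglyceride synthesis, had ratios of 1.42 and 1.39. Of 10 measured fatty acid oxidation genes, the nuclear receptor gene Ppard and Cpt1a, which brings fatty acids into mitochondria, were higher, at ratios of 2.76 and 1.63. The dehydrogenase gene Acadl was lower, at 0.506, and Acadvl had a ratio of 0.691, inside the limit.

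Within the ST-HSC library, Dntt-positive cells were compared with Hlf-high cells. No member passed 1.5-fold, 0 higher and 0 lower of 26 measured, where 3.16% of all 10464 genes were that much higher and 8.03% that much lower. The largest differences among measured members were those of Fads1, at 12.9 CPM in Dntt-positive and 18.5 CPM in Hlf-high cells, Msmo1, at 19.1 CPM in Dntt-positive and 27.1 CPM in Hlf-high cells, and Srebf2, at 98.3 CPM in Dntt-positive and 136 CPM in Hlf-high cells. Their ratios were 0.694, 0.704 and 0.721. Insig1 had 18.9 CPM in Dntt-positive and 22.9 CPM in Hlf-high cells, Idi1 had 21.4 CPM in Dntt-positive and 26.3 CPM in Hlf-high cells, and Srebf1 had 17.3 CPM in Dntt-positive and 17.4 CPM in Hlf-high cells. Fasn had 26.4 CPM in Dntt-positive and 23.7 CPM in Hlf-high cells, Scd2 had 89.2 CPM in Dntt-positive and 102 CPM in Hlf-high cells, and Scd1 had 1 UMI in Dntt-positive and 18 UMIs in Hlf-high cells.

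With the library totals Srebf2, Insig1, Msmo1, Cyp51, Sc5d, Fdft1, Hmgcs1, Insig2, Elovl6 and Scd2 were lower in Car1-high than in Hlf-high cells of both libraries by 1.5-fold or more. The share of all genes lower in both libraries was not counted, so this overlap is not read as a result about the members. With TMM Insig2 in both libraries, Fdft1 in the ST-HSC library and Scd2 in the LT-HSC library were inside 1.5-fold. In the ST-HSC library 3 of 26 measured members were higher and 10 lower, where 20.3% of all 10196 genes were that much higher and 39.3% that much lower. In the LT-HSC library 1 of 27 was higher and 16 lower, where 17.0% and 42.7% of all 10291 genes were. The lower count of the ST-HSC library is at the share of all genes, so the single genes below are given as levels and not as a change of the group. The median log2 ratio of the members was -0.02 in the ST-HSC library, beside -0.26 over all genes, and -0.71 in the LT-HSC library, beside -0.39 over all genes. These comparisons depend on the scaling: TMM gave 7 higher and 8 lower members in the ST-HSC library and 7 higher and 9 lower in the LT-HSC library, with the median of all genes at 0.03 and 0.23. With TMM 29.8% of all genes were higher and 31.9% lower in the ST-HSC library, and 36.4% and 24.6% in the LT-HSC library. Car1-high cells were also deeper, with medians of 39198 UMIs in the ST-HSC library and 34759 in the LT-HSC library, against 11190 and 12125.5 UMIs in Hlf-high cells of the same libraries, and 87.1% and 59.8% of them were called cycling. The part of depth in the result was not tested.

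Srebf2 stood at 37.6 CPM in Car1-high and 136 CPM in Hlf-high cells of the ST-HSC library, 3.62-fold lower (3.20 to 4.12), and at 34.7 CPM in Car1-high and 104 CPM in Hlf-high cells of the LT-HSC library, 3.001-fold lower (2.75 to 3.28). Insig1 stood at 8.08 CPM in Car1-high and 22.9 CPM in Hlf-high cells of the ST-HSC library, 2.83-fold lower, and at 14.3 CPM in Car1-high and 47.5 CPM in Hlf-high cells of the LT-HSC library, 3.31-fold lower. Both genes were past 1.5-fold with either alternative scaling in both libraries. Msmo1 stood at 12.4 CPM in Car1-high and 27.1 CPM in Hlf-high ST-HSC cells, and at 17.4 CPM in Car1-high and 49.3 CPM in Hlf-high LT-HSC cells. Cyp51 stood at 16.7 CPM in Car1-high and 31.1 CPM in Hlf-high ST-HSC cells, and at 18.9 CPM in Car1-high and 53.1 CPM in Hlf-high LT-HSC cells. Sc5d, Fdft1 and Hmgcs1 were lower in both libraries, by 1.89-fold, 1.69-fold and 2.08-fold in the ST-HSC library and by 2.68-fold, 2.58-fold and 2.35-fold in the LT-HSC library. With TMM Fdft1 of the ST-HSC library fell inside 1.5-fold, and with median-of-ratios scaling Cyp51 and Sc5d of the ST-HSC library and Hmgcs1 of the LT-HSC library did so too.

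Among fatty acid genes Elovl6 was lower in Car1-high cells of both libraries, at 31.4 CPM in Car1-high and 92.7 CPM in Hlf-high ST-HSC cells and at 22.3 CPM in Car1-high and 54.7 CPM in Hlf-high LT-HSC cells. Scd2 stood at 46.1 CPM in Car1-high and 102 CPM in Hlf-high ST-HSC cells, and at 45.0 CPM in Car1-high and 79.2 CPM in Hlf-high LT-HSC cells, where its ratio of 0.568 passed the limit with the library totals but not with TMM. Fasn did not pass in either library with the library totals, at 29.99 CPM in Car1-high and 23.7 CPM in Hlf-high ST-HSC cells and 14.0 CPM in Car1-high and 12.3 CPM in Hlf-high LT-HSC cells. Fasn and Srebf1 were past 1.5-fold higher in both libraries with TMM. Srebf1 had 25.5 CPM in Car1-high and 17.4 CPM in Hlf-high ST-HSC cells, and 18.2 CPM in Car1-high and 14.8 CPM in Hlf-high LT-HSC cells. Scd1 had 18 UMIs in Car1-high and 18 in Hlf-high ST-HSC cells, or 2.60 and 0.401 CPM, and 5 UMIs in Car1-high and 22 in Hlf-high LT-HSC cells, or 0.196 and 1.95 CPM.

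Early isoprenoid steps went in both directions. In ST-HSC cells Fdps stood at 84.4 CPM in Car1-high and 45.3 CPM in Hlf-high cells, 1.86-fold higher, and Pmvk at 45.9 CPM in Car1-high and 24.8 CPM in Hlf-high cells, 1.85-fold higher. In LT-HSC cells Fdps stood at 86.2 CPM in Car1-high and 69.6 CPM in Hlf-high cells, a ratio of 1.24. Ebp stood at 63.6 CPM in Car1-high and 43.4 CPM in Hlf-high ST-HSC cells and at 69.7 CPM in Car1-high and 46.5 CPM in Hlf-high LT-HSC cells, with log2 ratios of 0.55 and 0.59. Idi1 had 29.4 CPM in Car1-high and 26.3 CPM in Hlf-high ST-HSC cells, and 34.9 CPM in Car1-high and 65.7 CPM in Hlf-high LT-HSC cells, 1.88-fold lower. Fads2 passed the limit in opposite directions, 1.78-fold higher in the ST-HSC library and 1.73-fold lower in the LT-HSC library. The remaining lower members were Insig2 in both libraries, by 1.59-fold and 1.64-fold, and Fads1, Sqle, Acat2 and Hsd17b7 in the LT-HSC library, by 2.65-fold, 1.82-fold, 1.54-fold and 1.56-fold. Fads1 was past 1.5-fold with TMM as well, and Sqle, Acat2, Hsd17b7, Insig2, Idi1 and Fads2 of the LT-HSC library and Insig2 of the ST-HSC library were not. Hsd17b7 reached the mean of 5 CPM only through Hlf-high cells, and Acat2 shares sequence with Acat3. Of 12 sterol uptake and transport genes, 7 in the ST-HSC library and 8 in the LT-HSC library were lower with the library totals, beside 39.3% and 42.7% of all genes, some of them measured only through their level in Hlf-high cells. Soat1 stood at 1.44 CPM in Car1-high and 31.7 CPM in Hlf-high ST-HSC cells and at 1.53 CPM in Car1-high and 33.1 CPM in Hlf-high LT-HSC cells.

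**Figure D3:**
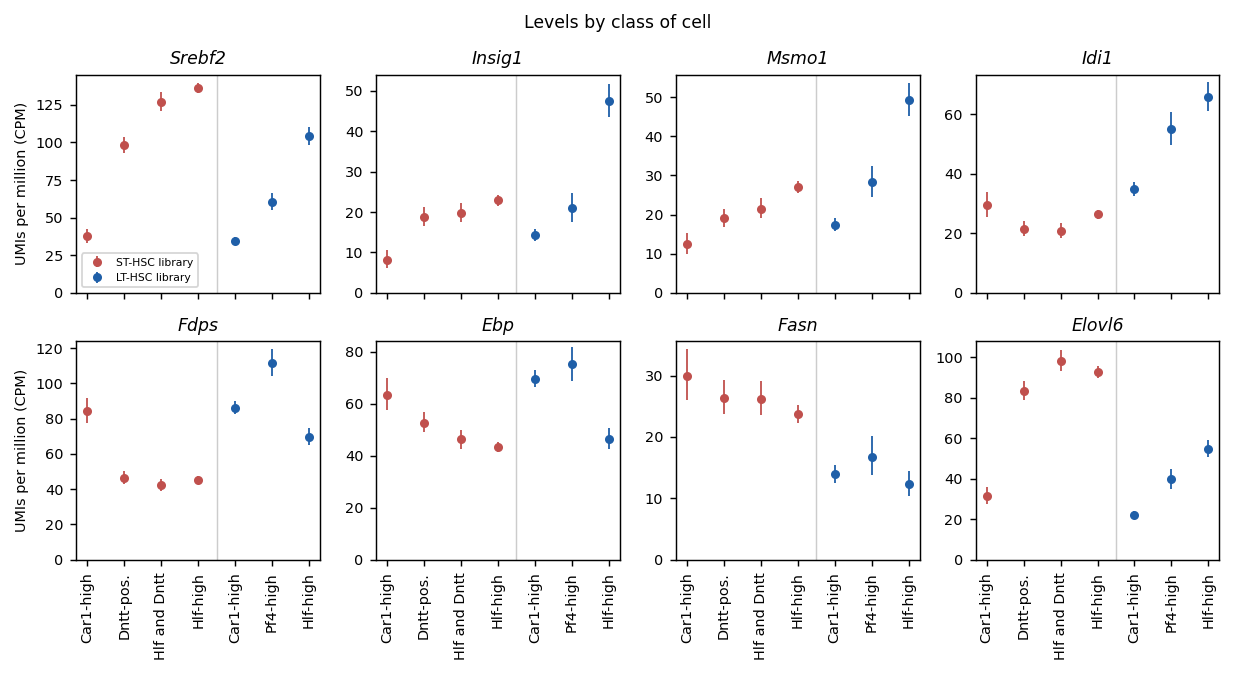
Levels of 8 members by class of cell, in CPM from 0, with exact Poisson 95% intervals. ST-HSC classes are red at the left of each panel and LT-HSC classes blue at the right. Srebf2 was at 37.6 and 34.7 CPM in Car1-high cells of the ST-HSC and LT-HSC libraries, and at 136 and 104 CPM in their Hlf-high cells, while Ebp was higher in Car1-high cells.

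Pf4-high cells could be compared in the LT-HSC library only. Of 29 measured members 2 were higher and 6 lower than in Hlf-high cells, where 13.3% of all 10462 genes were that much higher and 29.1% that much lower. Neither count is above the share of all genes, so single genes are given as levels and not as a change of the group. With TMM the counts were 3 and 3, beside 22.0% and 19.8% of all genes, and the median of all genes was 0.06, against -0.19 with the library totals. Insig1 stood at 20.9 CPM in Pf4-high and 47.5 CPM in Hlf-high cells, 2.27-fold lower (1.89 to 2.75), and Scd2 at 41.4 CPM in Pf4-high and 79.2 CPM in Hlf-high cells, 1.91-fold lower (1.67 to 2.19). Both were past the limit with TMM. Srebf2 stood at 60.4 CPM in Pf4-high and 104 CPM in Hlf-high cells, Msmo1 at 28.3 CPM in Pf4-high and 49.3 CPM in Hlf-high cells, Sc5d at 16.9 CPM in Pf4-high and 29.6 CPM in Hlf-high cells, and Fdft1 at 14.6 CPM in Pf4-high and 26.5 CPM in Hlf-high cells. With TMM Fdft1 was past the limit, and Srebf2, Msmo1 and Sc5d were inside it. Ebp, at 75.3 CPM in Pf4-high and 46.5 CPM in Hlf-high cells, and Fdps, at 112 CPM in Pf4-high and 69.6 CPM in Hlf-high cells, were higher. Idi1 had 55.0 CPM in Pf4-high and 65.7 CPM in Hlf-high cells, Srebf1 had 14.1 CPM in Pf4-high and 14.8 CPM in Hlf-high cells, and Fasn had 16.7 CPM in Pf4-high and 12.3 CPM in Hlf-high cells. Scd1 had 5 UMIs in Pf4-high and 22 in Hlf-high cells. The Pf4-high cells had a median of 24091 UMIs, and 41.7% were called cycling.

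Cycling cells, with at least 1% of their UMIs on the S and G2/M lists after thinning to 5000 UMIs, were set against the other cells of the same library. Insig1 and Msmo1 were lower in cycling cells of both libraries. In the ST-HSC library 0 of 26 measured members were higher and 4 lower, where 8.76% of all 10520 genes were that much higher and 13.1% that much lower. In the LT-HSC library 0 of 28 were higher and 7 lower, where 7.56% and 24.1% of all 10064 genes were. Both lower counts are near the share of all genes, so single genes are given as levels and not as a change of the group. Insig1 stood at 12.4 CPM in cycling and 25.1 CPM in other ST-HSC cells, 2.03-fold lower (1.85 to 2.23), and at 16.3 CPM in cycling and 33.2 CPM in other LT-HSC cells, 2.04-fold lower (1.83 to 2.27). Msmo1 stood at 15.02 CPM in cycling and 28.9 CPM in other ST-HSC cells, 1.92-fold lower, and at 20.6 CPM in cycling and 38.3 CPM in other LT-HSC cells, 1.86-fold lower. With TMM these were the only 2 lower members in each library, and Ebp was higher in the LT-HSC library. Of all genes, 7.98% were lower with TMM in the ST-HSC library, and 15.3% lower and 16.9% higher in the LT-HSC library. The median of all genes went to 0.08 in the ST-HSC library and 0.11 in the LT-HSC library, against -0.08 and -0.16 with the library totals.

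Srebf2 stood at 84.3 CPM in cycling and 131 CPM in other ST-HSC cells, and at 48.3 CPM in cycling and 78.3 CPM in other LT-HSC cells. Hmgcs1 was 1.51-fold lower in cycling ST-HSC cells, and Cyp51, Sc5d, Fdft1 and Elovl6 were 1.72-fold, 1.64-fold, 1.58-fold and 1.52-fold lower in cycling LT-HSC cells. Ebp went the other way, at 57.2 CPM in cycling and 44.8 CPM in other ST-HSC cells and at 73.5 CPM in cycling and 53.6 CPM in other LT-HSC cells. The remaining regulators and fatty acid genes were inside the limit. Srebf1 had 19.3 CPM in cycling and 16.8 CPM in other ST-HSC cells, and 17.1 CPM in cycling and 16.2 CPM in other LT-HSC cells. Fasn had 23.9 CPM in cycling and 27.2 CPM in other ST-HSC cells, and 14.0 CPM in cycling and 14.5 CPM in other LT-HSC cells. Scd2 had ratios of 0.777 in the ST-HSC library and 0.761 in the LT-HSC library, Idi1 had 0.822 and 0.742, and Scd1 had 52 UMIs in cycling and 18 in other ST-HSC cells, and 16 in cycling and 34 in other LT-HSC cells.

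Because cycling cells are more common in some classes, the same ratio was taken inside each class with at least 50 cycling and 50 other cells, which were Hlf-high, Dntt-positive and unclassed cells of the ST-HSC library and Car1-high, Pf4-high and unclassed cells of the LT-HSC library. Insig1 was below 1 in 6 of 6 classes, with log2 ratios between -1.004 and -0.50, and past 1.5-fold in 4. In Hlf-high ST-HSC cells Insig1 had 13.8 CPM in cycling and 27.7 CPM in other cells, while in Car1-high LT-HSC cells it had 12.8 CPM in cycling and 18.1 CPM in other cells. Msmo1 was below 1 in 5 of 6 classes and past 1.5-fold in 4. It had 15.8 CPM in cycling and 33.0 CPM in other Hlf-high ST-HSC cells, but 17.5 CPM in cycling and 17.2 CPM in other Car1-high LT-HSC cells, where both groups were low. Cyp51 was below 1 in 6 of 6 classes and past the limit in 2. Hmgcs1, Sqle, Sc5d and Srebf2 were also below 1 in 6 of 6 classes, past the limit in 1, 2, 1 and 1. Mvd was too, but it was measured in only 2 classes. A ratio below 1 in every class was thus not particular to Insig1 and Cyp51. In Hlf-high ST-HSC cells 6.61% of all genes were lower in cycling cells by 1.5-fold or more, and 6.62% higher. The remaining classes were not set against all genes, and the share of all genes below 1 in every class was not counted. Unclassed cells are a remainder and not 1 kind of cell. In the ST-HSC library their neutrophil and monocyte markers summed to 3838 CPM, against 612 CPM in Hlf-high cells. The mix of cells was therefore not held fixed in the unclassed groups. Ebp was above 1 in 6 of 6 classes, with log2 ratios between 0.15 and 0.57, none past the limit.

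**Figure D4:**
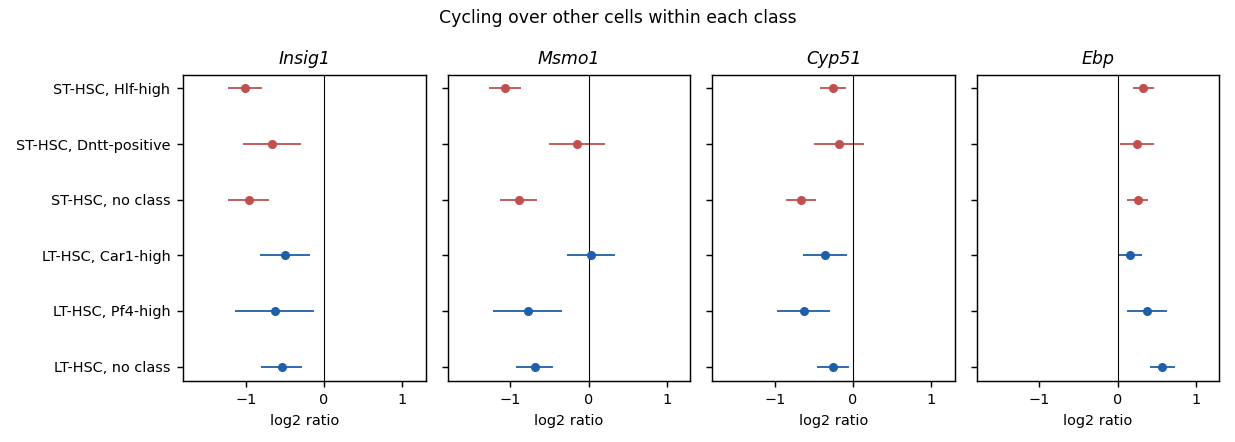
Log2 ratio of cycling over other cells within 6 classes for Insig1, Msmo1, Cyp51 and Ebp, with exact 95% intervals of counting error. Insig1 points lie between -1.004 and -0.50 and Ebp points between 0.15 and 0.57.

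Cells of 1 class also differed among themselves. Each cell was thinned to 5000 UMIs, and the UMIs of the 18 enzymes of the mevalonate and squalene-to-cholesterol steps were summed. Their mean was 1.79 UMIs in Hlf-high ST-HSC cells and 2.67 UMIs in Hlf-high LT-HSC cells. The variance of this sum was 1.97 times its mean in ST-HSC cells and 2.34 times in LT-HSC cells, where independent counting of molecules would give 1. Covariance between the enzymes made up 0.831 of that ratio in ST-HSC cells and 1.12 in LT-HSC cells. In Car1-high cells the ratio was 1.26 in the ST-HSC library and 1.27 in the LT-HSC library, with a covariance part of 0.212 and 0.210. Pf4-high LT-HSC cells had 1.86 and Dntt-positive ST-HSC cells 1.42. The 8 fatty acid genes, summed in the same way, had 1.19 in Hlf-high ST-HSC cells and 1.17 in Hlf-high LT-HSC cells, with covariance parts of 0.0475 and 0.123. The covariance part adds up all pairs of genes, and 8 genes form fewer pairs than 18. The parts of the 2 sums are therefore not on the same scale.

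Hlf-high cells were then split by this enzyme sum, and genes outside the sum were read. Cells with 5 or more enzyme UMIs were 209 cells, or 7.07%, in the ST-HSC library and 123 cells, or 16.2%, in the LT-HSC library. Insig1, which was not in the sum, stood in cells with 0 to 1, 2 to 4 and 5 or more enzyme UMIs at 19.2, 24.1 and 45.3 CPM in ST-HSC cells and at 31.3, 50.001 and 78.0 CPM in LT-HSC cells. It was thus higher in cells rich in enzyme RNA, 2.35 times in the ST-HSC library and 2.495 times in the LT-HSC library between the outer groups. Scd2 stood at 97.7, 103 and 126 CPM in ST-HSC cells and at 72.1, 76.5 and 105 CPM in LT-HSC cells. Acaca stood at 73.3, 76.2 and 101 CPM in ST-HSC cells and at 44.3, 43.5 and 68.6 CPM in LT-HSC cells. Srebf2 was at 134, 133 and 178 CPM in ST-HSC cells and at 98.7, 107 and 105 CPM in LT-HSC cells. In ST-HSC cells Scap, Srebf1, Fads1 and Insig2 had ratios between the outer groups of 0.929, 0.957, 1.015 and 1.112. Fasn, Elovl6, Acly and Fads2 had 1.275, 1.221, 1.456 and 1.533 there. In LT-HSC cells the first 4 had 1.462, 1.336, 1.199 and 1.185, and the others 1.28, 1.371, 1.512 and 1.093. Members thus did not all rise with enzyme RNA in ST-HSC cells, and Scd1 had few UMIs. Hlf showed no rising order, at 837, 808 and 839 CPM in ST-HSC cells and at 581, 604 and 550.0 CPM in LT-HSC cells. The class was cut on Hlf, and no other gene outside the members was read. Whether the order is particular to the pathway was therefore not tested. Of the ST-HSC cells 24.6%, 23.7% and 14.4% were called cycling in the same order, and of the LT-HSC cells 3.83%, 2.87% and 4.07%. The part of cycling in these orders was not tested. These cells share 1 library each and are not replicates, so the values describe these libraries only.

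**Figure D5:**
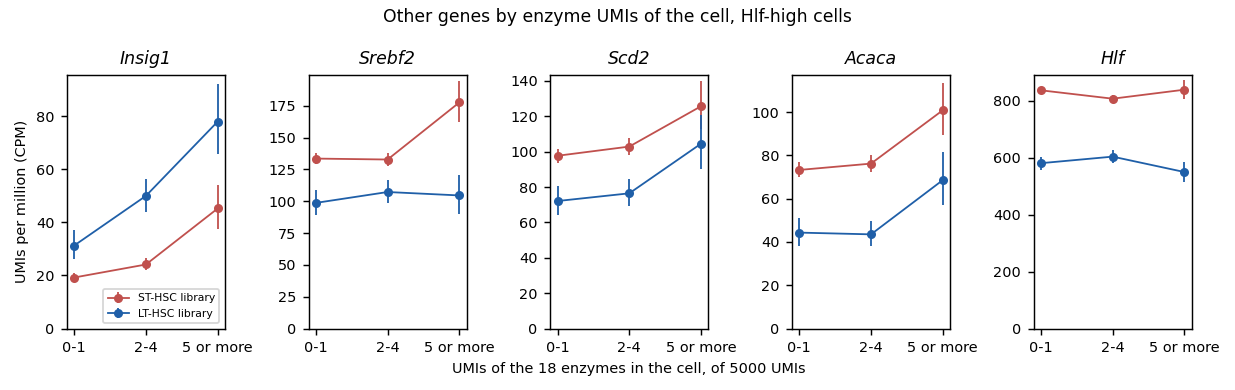
Levels of 4 members and of Hlf in Hlf-high cells grouped by how many of 5000 UMIs fell on the 18 cholesterol enzymes, in CPM with exact Poisson 95% intervals. Insig1 is at 45.3 and 78.0 CPM in cells with 5 or more enzyme UMIs of the ST-HSC (red) and LT-HSC (blue) libraries, against 19.2 and 31.3 CPM in cells with 0 to 1.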

How the data were processed

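Single-cell RNA was measured in 1 ST-HSC and 1 LT-HSC library. The authors deposited UMI counts per gene and barcode with no normalization, made on build mm10 with Cell Ranger 7.2 per the submitters' processing notes, and written by Cell Ranger 7.1.0 per the file headers. Whether intronic reads were counted, and how strand was used, is not given in the sources used here; antisense overlap was therefore treated as uncertain. Opposite-strand genes overlap Acaca, Cyp51, Elovl6, Fdft1, Hmgcs1, Idi1, Insig2, Lss, Mvd, Scap and Srebf1, and same-strand genes overlap Acaca, Acly, Elovl6, Fads1, Fdps, Scd2, Srebf1, Srebf2 and Tm7sf2.

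UMI counts of each group of cells were summed and divided by the group's total to CPM (numpy 2.4.6). Ratios carry exact conditional binomial (Clopper-Pearson) 95% intervals and levels exact Poisson ones (scipy 1.17.1); both cover counting error only. A gene was measured at a mean of 5 CPM over the 2 groups, and called by size at 1.5-fold, since 1 library a group allows no test. Cells under 5000 UMIs, 281 in the ST-HSC and 68 in the LT-HSC library, had no cycling call. Scrublet (scanpy 1.11.5) called 0 ST-HSC cells and 6 LT-HSC cells as doublets and was taken not to have worked, so doublets were kept; leaving out the 384 ST-HSC and 63 LT-HSC cells with the highest scores, at the expected rates of 6.07% and 2.35%, was an alternative. TMM scaling used edgeR 4.0.16. The calculation of ratios, intervals and calls was run on simulated independent Poisson counts. These hold no spread between cells or libraries, so the run checks the calculation only. Positions and overlaps are from GENCODE M21, and promoters from RefSeq.

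All 31 members are accounted for; named in full are those past 1.5-fold in a comparison, with Srebf1, Srebf2, Insig1, Scd1, Scd2, Fasn and Idi1 throughout, and up to 4 genes with the largest ratios over all cells from each further list. The members and lists were chosen with earlier results of these data known.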

Additional observations from a re-analysis of the deposited data

Results flagged for a closer look

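Fads2, a desaturase of polyunsaturated fatty acids, differed in opposite directions between Car1-high and Hlf-high cells of the 2 libraries. Its log2 ratio was 0.83 in the ST-HSC library, at 53.8 CPM in 180 Car1-high cells and 30.3 CPM in 3103 Hlf-high cells. Its log2 ratio was -0.79 in the LT-HSC library, at 24.2 CPM in 644 Car1-high cells and 41.9 CPM in 774 Hlf-high cells. With TMM or median-of-ratios scaling the LT-HSC value was inside 1.5-fold in the same direction. The difference between the libraries was not tested, since each sort has 1 library.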

How the results depend on the processing

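No paired analysis was possible because each group has 1 library and no result comes from a test. Of 126 counts of members called under alternatives, 97 were within 1.5 times the value reported, and of 560 called member values 486 kept their call, 72 fell inside 1.5-fold in the same direction and 2 turned. The turned values were Acat2, at 0.036, and Hsd17b7, at 0.014, in Car1-high over Hlf-high LT-HSC cells with median-of-ratios scaling. In Hlf-high cells between libraries the counts stayed at 4 higher and between 6 and 10 lower. The 6 was in cells not cycling and the 10 with no filter on low levels, where 11.7% and 23.8% of all genes were lower. Over all cells the lower count was 5 without Car1-high and Pf4-high cells, beside 10.8% of all genes. The share of all genes called changed with the setting too, so the counts below describe the settings and not the members. For Dntt-positive cells the lower count was 3 with no filter on low levels, 2 with each cell weighted the same, 1 without the highest Scrublet scores, 1 with class limits halved, 1 with them doubled and 3 in cells not cycling. For Car1-high ST-HSC cells TMM gave 7 higher, and median of ratios 7 higher and 6 lower. For Car1-high LT-HSC cells TMM gave 7 higher and 9 lower, median of ratios 7 and 8, no filter 2 higher, and equal cell weights, halved limits, cells of several classes and cells not cycling 0 higher each. For Pf4-high cells the lower count was 3 with TMM and 2 with median of ratios, and the higher count was 1 in cells not cycling. For cycling cells both scalings gave 2 lower in each library and 1 higher in the LT-HSC library, and no filter gave 1 higher in the ST-HSC library. The change with scaling goes with its shift of all genes; the cause of the others was not tested. Doubled limits and cells not cycling left 14 and 23 Car1-high ST-HSC cells, and a cycling limit of 2% and Hlf-high cells alone left 47 and 26 cycling LT-HSC cells, so these were not run. Depth limits Mvd, Lss, Tm7sf2, Hsd17b7 and Scd1 most.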
